A study of Mus musculus with 6 samples.

Results

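The 39 Hox genes of the mouse were read in cortical bone tubes from adult hind limbs, first for which of them could be measured above background and then for their difference between PTH and control. They were taken as every gene symbol of the array table made of Hox, a cluster letter from a to d and a number, which gave 39 of the 31508 symbols, carried by 55 of the 45281 probes. The bone tubes were the shafts of femur and tibia from C57BL6 mice. The labels give the age as 3 months, and the methods give a range of ages up to it. Muscle and growth plate had been removed, the marrow flushed out and the bone surfaces digested with collagenase and trypsin. After a night in culture, the tubes were kept for 24 hours without addition (control, 3 arrays) or with 250 nM PTH 1-34 (PTH, 3 arrays). RNA of each preparation came from the bones of several mice, and neither the labels nor the table say whether arrays with the same number were prepared together, so the spread between arrays may be partly technical. The labels give 1 strain for all animals and name no engineered allele, and both groups shared the same digestion, serum and overnight culture.

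Hox genes encode homeodomain transcription factors that give cells of the embryo their position along the body axis and, in the limb, along the axis from shoulder or hip to digits. They lie in 4 clusters, and genes at the same place in different clusters form a paralogue group, with low numbers at the 3′ end of a cluster and high numbers at the 5′ end. In the limb bud, 5′ genes of the Hoxa and Hoxd clusters pattern the upper, middle and distal segments, and some 5′ genes of the Hoxc cluster, *Hoxc10* among them, are more active in the hind limb than in the fore limb. Cells of adult skeletal tissue are known to keep a part of such a positional pattern.

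A middle stretch of the Hoxa cluster held several of the genes with signal, and the promoter sequences of its genes are shown because they lie side by side and include the gene with the largest difference with PTH. Sequences were those of RefSeq (GRCm38.p6), from 250 bases before to 50 after the annotated start, and were found for 22 of the 39 Hox genes. All 4 windows read from the minus strand, at chr6:52204538-52204837 for *Hoxa5*, chr6:52208623-52208922 for *Hoxa6*, chr6:52218524-52218823 for *Hoxa7* and chr6:52227321-52227620 for *Hoxa9*. Capitals mark the core of a cAMP response element (CRE), TGACG on the printed strand or CGTCA where it lies on the other strand.
Hoxa5: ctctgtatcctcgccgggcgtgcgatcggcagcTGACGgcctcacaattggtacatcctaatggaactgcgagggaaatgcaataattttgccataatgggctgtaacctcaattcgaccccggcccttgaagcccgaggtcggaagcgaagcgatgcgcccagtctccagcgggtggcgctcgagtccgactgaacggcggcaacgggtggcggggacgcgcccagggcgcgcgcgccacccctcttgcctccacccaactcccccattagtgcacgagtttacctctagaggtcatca
Hoxa6: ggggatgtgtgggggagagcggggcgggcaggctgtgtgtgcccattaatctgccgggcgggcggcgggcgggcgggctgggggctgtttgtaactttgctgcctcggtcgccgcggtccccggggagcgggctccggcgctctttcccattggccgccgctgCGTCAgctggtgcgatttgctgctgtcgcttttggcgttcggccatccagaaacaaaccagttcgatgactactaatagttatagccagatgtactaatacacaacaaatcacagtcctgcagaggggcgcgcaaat
Hoxa7: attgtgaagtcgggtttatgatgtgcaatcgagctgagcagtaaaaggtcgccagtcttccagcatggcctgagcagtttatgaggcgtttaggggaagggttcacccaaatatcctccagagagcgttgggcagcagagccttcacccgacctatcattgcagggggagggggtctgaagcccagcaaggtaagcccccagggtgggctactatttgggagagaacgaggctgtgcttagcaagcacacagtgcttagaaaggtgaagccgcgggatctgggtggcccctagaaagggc
Hoxa9: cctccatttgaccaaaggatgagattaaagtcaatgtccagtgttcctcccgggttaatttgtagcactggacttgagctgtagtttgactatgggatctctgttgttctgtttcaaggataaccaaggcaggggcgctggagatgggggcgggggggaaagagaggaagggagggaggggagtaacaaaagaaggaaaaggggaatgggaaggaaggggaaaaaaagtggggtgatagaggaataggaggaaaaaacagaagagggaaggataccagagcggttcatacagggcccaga
The CRE core, which is part of the site bound by the CREB factors that act downstream of cAMP, was searched because the PTH receptor raises cAMP. The core began 217 bases before the start of *Hoxa5* and 87 bases before that of *Hoxa6*, and these letters were not in the windows of *Hoxa7* and *Hoxa9*. Over the 24 windows of the 22 Hox genes, 7 held the core on either strand, or 29.2%, against 20.8% of all 32851 promoter windows. None held the complete palindrome TGACGTCA, which contains the core on both strands and which 1.79% of all windows held. The CpG content of the Hox windows was high, with a median observed over expected ratio of 0.63 against 0.38 for all windows. Among the 4 windows shown this ratio was 1.02 for *Hoxa5*, 0.92 for *Hoxa6*, 0.41 for *Hoxa7* and 0.28 for *Hoxa9*.

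A probe was taken as above background on an array when its detection p, which compares it with the negative control beads of that array, was under 0.05. In control bone tubes, 10 of the 39 Hox genes (25.6%) passed with 1 probe on each of the 3 arrays, where 32.8% of all gene symbols did. These were *Hoxa4*, *Hoxa5*, *Hoxa7*, *Hoxa9* and *Hoxa13*, *Hoxb2* and *Hoxb7*, and *Hoxc6*, *Hoxc9* and *Hoxc10*. The Hoxa cluster thus had 5 of its 11 genes above background on every control array, the Hoxc cluster 3 of 9, the Hoxb cluster 2 of 10 and the Hoxd cluster 0 of 9. A further 8 Hox genes were above background on 1 or 2 of the 3 control arrays, and 21 on none. Of these 21, 17 were not above background on any of the 6 arrays.

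**Figure D1:**
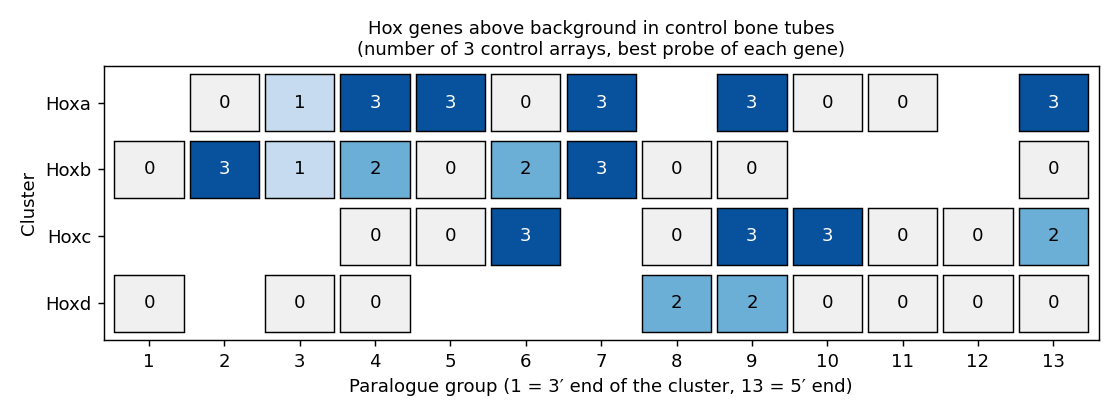
Each box is a mouse Hox gene, placed by its cluster (vertical axis) and paralogue group (horizontal axis), and the number and shade give how many of the 3 control arrays had its best probe above background; empty places have no gene or are not shown. The 10 dark boxes lie in the Hoxa, Hoxb and Hoxc rows, and no box of the Hoxd row reaches 3.

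By position along the clusters, 1 of 8 genes of paralogue groups 1 to 3 was above background on all 3 control arrays, 5 of 15 of groups 4 to 8, and 4 of 16 of groups 9 to 13. Both genes of group 7, *Hoxa7* and *Hoxb7*, were among them. So were *Hoxa9* and *Hoxc9*, 2 of the 4 genes of group 9, the group whose members take part in setting the position of the limb. Groups 10 to 13 include genes of the Hoxa and Hoxd clusters that pattern the limb segments. Of the 12 genes of these groups, *Hoxc10* and *Hoxa13* were above background on all 3 control arrays, and none of the 3 genes of group 11 or the 2 of group 12 was so on any control array. *Hoxa11* and *Hoxd11*, which are required in the embryo for the middle segment of the limb, were thus both without signal in control bone tubes. *Hoxd11* was above background on 1 PTH array. *Hoxa13*, a gene of the distal limb, had 1 probe above background on 3 control and 2 PTH arrays, and its other 2 probes were so on none of the 6 arrays.

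The genes near the limit included *Hoxb4*, *Hoxb6*, *Hoxc13*, *Hoxd8* and *Hoxd9*, each above background on 2 control arrays, and *Hoxa3* and *Hoxb3*, each on 1. *Hoxd8* was above background on all 3 PTH arrays. Those on no control array were *Hoxa2*, *Hoxa6*, *Hoxa10* and *Hoxa11*, *Hoxb1*, *Hoxb5*, *Hoxb8*, *Hoxb9* and *Hoxb13*, *Hoxc4*, *Hoxc5*, *Hoxc8*, *Hoxc11* and *Hoxc12*, and *Hoxd1*, *Hoxd3*, *Hoxd4*, *Hoxd10*, *Hoxd11*, *Hoxd12* and *Hoxd13*. Among these, *Hoxb5*, *Hoxc4*, *Hoxd4* and *Hoxd11* were above background on 1 PTH array each. The 25 probes of the 21 genes read between 0.85 and 1.14 times the mean background of their control array, with a median of 1.00, and the 12 probes above background on all 3 control arrays read between 1.15 and 9.23 times, with a median of 1.67. Requiring only 2 of 3 control arrays gave 16 Hox genes in place of 10, and with 1 control array left out the count lay between 11 and 14.

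A probe that was not above background gave only a bound on its gene. *Runx2*, a transcription factor of the osteoblast lineage, was also above background on none of the 6 arrays, so the lack of signal of a Hox probe did not show that its gene was silent. Only 12 of the 39 Hox genes had more than 1 probe. *Hoxa9* and *Hoxc10* had a pair of probes each that were above background on all 6 arrays. The remaining probe of *Hoxa9* was above background on none, and that of *Hoxb7* on 1 PTH array. The transcript listed as Hoxa11s, the antisense RNA of *Hoxa11* now named *Hoxa11os*, had a probe of its own, which was above background on 2 control arrays and 1 PTH array while *Hoxa11* was so on none.

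On the PTH arrays, 10 Hox genes were above background on all 3, and 9 on all 6 arrays of both groups. Those 9 were the 10 of the control arrays without *Hoxa13*. Array by array, 15, 12 and 17 Hox genes were above background in control and 12, 11 and 16 in PTH bone tubes, and the share of all probes above background was between 34.2% and 38.4%, highest on the arrays numbered 3 of both groups.

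Tissue beyond the osteocyte was checked by marker lists, because RNA of a whole bone tube cannot tell a different number of cells from a different amount of RNA per cell. Among 7 osteocyte genes, 6 were above background on all 3 control arrays, *Dmp1*, *Mepe*, *Phex* and *Sost* among them, and *Mepe* (log2 fold change −1.02, adjusted p = 0.0128, limma) and *Mef2c* (−0.97, adjusted p = 0.0104) fell with PTH. So did *Ibsp* (−2.01, adjusted p = 0.000747, limma) and *Sp7* (−0.81, adjusted p = 0.0259), among 5 osteoblast genes tested. Not every marker fell. Of the 6 osteocyte genes tested, 5 were lower in their mean. The other, *Pdpn* (listed as Gp38), was higher with groups apart, though not called (0.70, adjusted p = 0.056, limma). Among the osteoblast genes, 4 of 5 were lower in their mean and *Spp1* was near 0 (0.009, adjusted p = 0.984, limma). Of 8 genes of skeletal muscle, which is a hind limb tissue with Hox expression of its own, *Acta1*, *Ckm*, *Myh4*, *Tnnt3*, *Myod1* and *Pax7* were not above background on any array, while *Mylpf*, a myosin light chain, was above it on all 6 and *Des* (desmin) on 3 control and 2 PTH arrays. The sums of muscle signals above background were 59 to 80 on the control and 49 to 72 on the PTH arrays and overlapped. Marrow and blood genes were present, with 11 of 15 above background on all 3 control arrays, and 6 of the 12 tested fell with PTH. These were the globin genes *Hba-a1* (log2 fold change −1.98) and *Hbb-b1* (−1.89) and the neutrophil granule genes *Mpo* (−0.91), *Ngp* (−0.88), *NE* (−0.76) and *Ltf* (−0.72). Over the whole table, 32.8% of gene symbols were above background on all 3 control arrays and 1.73% of genes tested were called in either direction. These shares stand beside the counts of every marker list. The signals of the marrow and blood list above background summed to between 43807 and 52561 on the control arrays and between 25579 and 40277 on the PTH arrays, groups that did not overlap. The sums of all lists used signals that were not normalized between arrays, so the brightest genes weighed most. The brightest here, *S100a8*, gave 22527.2, 26205 and 23685.5 in control and 15100.5, 21170.6 and 23439 with PTH. Its deposited signals overlapped, while its normalized values were apart with PTH lower. It was not called (log2 fold change −0.43, adjusted p = 0.192, limma). Tendon and fibroblast genes had sums of 1429 to 1880 in control and 2203 to 4092 in PTH bone tubes, with *Dcn*, a small proteoglycan, the 1 of 4 tested that was called (log2 fold change 0.83, SE 0.12, adjusted p = 0.0181, limma). Most of these sums came from *Dcn*, with deposited signals of 1178.9 to 1491.2 in control and 1968.1 to 3592.1 with PTH. The others tested, *Scx* (−0.13), *Postn* (0.04) and *Mkx* (0.12), had groups that overlapped, so the sums do not show a rise of the list as a whole. Sums of cartilage genes (696 to 880 against 749 to 1313), fat genes (58 to 84 against 56 to 88) and endothelial genes (585 to 759 against 434 to 856) overlapped between the groups, and of these only *Agc1* (aggrecan) was called, lower with PTH (adjusted p = 0.0115, limma). Its tested probe was above background on 3 control arrays and no PTH array, so it entered the test through the control group and has only a bound with PTH. On the normalized scale used here the gene was at least 1.59-fold lower, with each PTH array set at its lowest detected signal. The part of these cells in the Hox signals was not tested, and Hox genes are known to be expressed in blood progenitors, *Hoxa7* and *Hoxa9* among them.

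PTH was compared with control to find whether any Hox gene of the bone tubes changed. To be tested, a probe had to pass detection on 3 or more of the 6 arrays, and 15 probes of 13 Hox genes did. The brightest tested probe stood for its gene, and a call required an adjusted p under 0.05 (limma, Benjamini-Hochberg over all probes tested) together with at least a 1.5-fold difference. Of the 13 Hox genes tested, 0 were called, where 207 of all 11979 genes tested, or 1.73%, were called. At an unadjusted p under 0.05 (limma), 3 of the 13 passed, *Hoxa7*, *Hoxc6* and *Hoxa13*, where 14.9% of all genes did. The median log2 fold change of the 13 was 0.06, against 0.005 for all genes tested, and the median size of the change without its sign was 0.15, against 0.16. By sign, 8 were higher and 5 lower with PTH, from −0.48 to 0.59. With the arrays scaled by their medians, which moved the median change of all genes to 0.12, the median of the 13 was 0.13, with 10 higher and 3 lower.

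The PTH values were all higher than the control values for 3 of the 13 genes, *Hoxa7*, *Hoxc6* and *Hoxd8*, where 11.1% of all genes tested had groups apart in this direction. The opposite, all PTH values below the control values, held for none of the 13, where 10.8% of all genes did. This split depended on the detection filter. With no filter, 4 of the 39 Hox genes were apart with PTH higher and 1 with PTH lower. The share of all genes apart was not counted at that setting, so these counts are a description only. The gene apart with PTH lower was *Hoxb6*, above background on 2 control arrays and no PTH array. Its log2 values were 4.75, 5.42 and 4.98 in control and 4.52, 4.43 and 4.46 with PTH. An exact permutation test of 3 arrays against 3 could give no p below 0.1 for any gene. The 95% interval (limma) of all 13 genes lay within a 2-fold difference in either direction, the farthest bound being 1.91-fold, and for 5 of the 13 it lay within 1.5-fold. The intervals do not show that any gene was unaffected, since smaller differences lie within them. They also bound the normalized signal and not the change in RNA itself. For probes near background the size of a difference depended on the background correction. With quantile normalization alone, *Hoxd8* went from 0.44 to 0.15 and *Hoxa13* from −0.48 to −0.16.

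**Figure D2:**
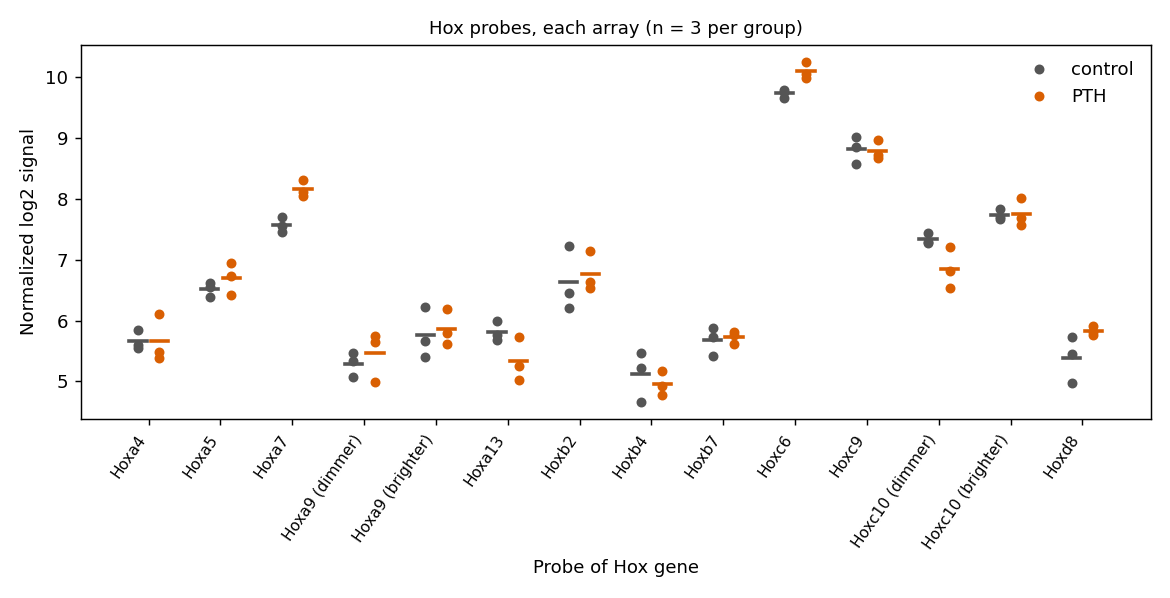
Normalized log2 signal (vertical axis) of 14 of the 15 Hox probes tested, with a point for each control and each PTH array and a bar at the mean of each group (n = 3); heights of different probes are not comparable. The groups are apart, with PTH higher, for *Hoxa7*, *Hoxc6* and *Hoxd8*, and apart with PTH lower for the dimmer probe of *Hoxc10*.

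*Hoxa7*, a gene of the middle of its cluster, showed the largest difference of the 13. Deposited signals were 263.4, 291.7 and 268.3 in control and 348.1, 359.4 and 489.9 in PTH bone tubes, where the background of the 6 arrays averaged between 104.9 and 121.2. After normalization its log2 values were 7.70, 7.56 and 7.46 in control and 8.32, 8.05 and 8.12 in PTH bone tubes. All 3 PTH arrays were above all 3 control arrays, and the gap was larger than the spread within either group. The means were 7.58 ± 0.12 and 8.16 ± 0.14 (SD, n = 3). The log2 fold change of 0.59 (SE 0.14, 95% interval 0.28 to 0.90), or about 1.5-fold, had an unadjusted p of 0.00253 and an adjusted p of 0.09 (limma). *Hoxa7* thus did not pass the test. Over 17 other ways of processing the arrays or leaving arrays out, its log2 fold change stayed between 0.42 and 0.71, and its adjusted p lay between 0.0122 and 0.424 and was under 0.05 in 3. It was called in 1 of those 3, where only probes with a detection p under 0.01 on all 6 arrays were tested (adjusted p = 0.0346). In the other 2 its difference was under 1.5-fold.

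*Hoxc6*, which acts in the patterning of the shoulder and chest region, gave signals of 782.6, 897.7 and 967.6 in control and 1084.5, 1181.0 and 1509.4 in PTH bone tubes. Its normalized log2 values were 9.76, 9.67 and 9.80 in control and 10.26, 10.05 and 9.99 with PTH. All PTH arrays were above all control arrays on both scales. The log2 fold change was 0.35 (SE 0.13, 95% interval 0.06 to 0.65, unadjusted p = 0.0261, adjusted p = 0.258, limma), and it lay between 0.27 and 0.51 over the 17 alternatives, with an adjusted p under 0.05 in none.

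*Hoxd8*, the 1 gene of the Hoxd cluster that could be tested, gave signals of 141.6, 136.8 and 132.8 in control and 136.0, 151.2 and 175.3 in PTH bone tubes. These signals overlapped between the groups. After background correction and normalization, its log2 values of 5.74, 4.98 and 5.45 in control all lay below the values of 5.77, 5.91 and 5.82 with PTH, by a narrow margin. The log2 fold change was 0.44 (SE 0.20, 95% interval −0.01 to 0.90, adjusted p = 0.352, limma), and it was 0.15 with quantile normalization alone. With median scaling its groups overlapped. The value was 0.24 without control replicate 2, on which the probe was not above background, and between 0.40 and 0.64 without each of the other 5 arrays.

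*Hoxa13* was lower with PTH in its mean but not on every array. Its signals were 142.5, 168.2 and 141.6 in control and 135.3, 122.4 and 146.6 in PTH bone tubes, and its normalized log2 values were 5.76, 5.99 and 5.69 against 5.74, 5.02 and 5.26. The first PTH array lay between the control arrays, and the other two lay below them. The log2 fold change was −0.48 (SE 0.20, 95% interval −0.94 to −0.02, unadjusted p = 0.0443, adjusted p = 0.324, limma). It was −0.16 with quantile normalization alone. The groups were apart with median scaling and without both arrays numbered 3. They were also apart without control replicate 3 (−0.53, adjusted p = 0.351, limma) and without PTH replicate 1 (−0.7, adjusted p = 0.154, limma).

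**Figure D3:**
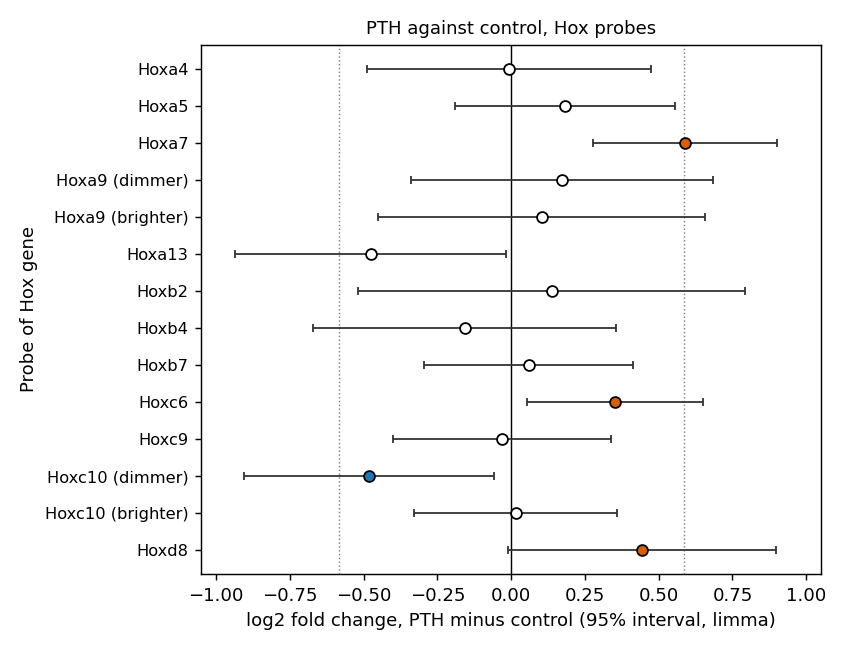
Log2 fold change of PTH over control (horizontal axis) for 14 of the 15 Hox probes tested, with 95% intervals from limma (n = 3 per group). Filled points have groups that do not overlap (orange, PTH higher; blue, PTH lower), and dotted lines mark a 1.5-fold difference; the whole interval is above 0 for *Hoxa7* and *Hoxc6*, and below 0 for *Hoxa13* and the dimmer probe of *Hoxc10*.

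The 2 tested probes of *Hoxc10*, a gene of the hind limb and lumbar region, disagreed. The brighter probe gave normalized log2 values of 7.68, 7.71 and 7.84 in control and 8.01, 7.57 and 7.69 in PTH bone tubes, groups that overlapped, with a log2 fold change of 0.02 (SE 0.15, adjusted p = 0.978, limma). The dimmer probe gave 7.44, 7.28 and 7.29 in control and 6.81, 7.21 and 6.54 with PTH, every PTH array below every control array, with a log2 fold change of −0.48 (SE 0.18, unadjusted p = 0.0304, adjusted p = 0.274, limma). The brighter exceeded the dimmer by 0.24, 0.43 and 0.55 on the 3 control arrays, in order, and by 1.2, 0.36 and 1.15 on the PTH arrays, on the log2 scale. This difference between probes was larger on PTH arrays 1 and 3 than on any control array but not on PTH array 2, and an exact permutation test gave a two-sided p of 0.3. Which transcripts the probes read was not examined here.

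The other Hox genes described here had groups that overlapped. In the Hoxa cluster, *Hoxa5*, which acts in the patterning of the neck and chest, gave log2 values of 6.55, 6.62 and 6.39 in control and 6.43, 6.95 and 6.73 with PTH. Its log2 fold change was 0.18 (SE 0.16, adjusted p = 0.673, limma), with 1 PTH array inside the control range. *Hoxa4* gave 5.85, 5.60 and 5.55 in control and 6.11, 5.49 and 5.38 with PTH, so that the PTH arrays lay on both sides of the control arrays. The brighter probe of *Hoxa9*, a gene also known for its part in blood progenitors, gave 5.4, 6.22 and 5.67 in control and 6.19, 5.80 and 5.61 with PTH (log2 fold change 0.10, SE 0.24, adjusted p = 0.891, limma), and its dimmer probe 5.33, 5.07 and 5.47 against 5.65, 5.75 and 4.99. Both probes of *Hoxa9* overlapped between the groups.

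In the Hoxb cluster the arrays within a group were as far apart as the groups. *Hoxb2*, a gene of the hindbrain, gave log2 values of 6.21, 7.23 and 6.45 in control and 6.63, 7.15 and 6.53 with PTH, and had the widest error of the 13 genes (log2 fold change 0.14, SE 0.28). *Hoxb4*, which is also active in blood stem cells, gave 5.22, 4.66 and 5.47 in control and 4.77, 4.92 and 5.18 with PTH. *Hoxb7*, a mid-cluster gene, gave 5.88, 5.42 and 5.73 in control and 5.62, 5.82 and 5.77 with PTH. All PTH values of *Hoxb4* and *Hoxb7* lay within the control range. In the Hoxc cluster, *Hoxc9* gave 9.02, 8.85 and 8.58 in control and 8.72, 8.97 and 8.67 with PTH, again inside the control range (log2 fold change −0.03, SE 0.16, 95% interval −0.40 to 0.34).

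**Figure D4:**
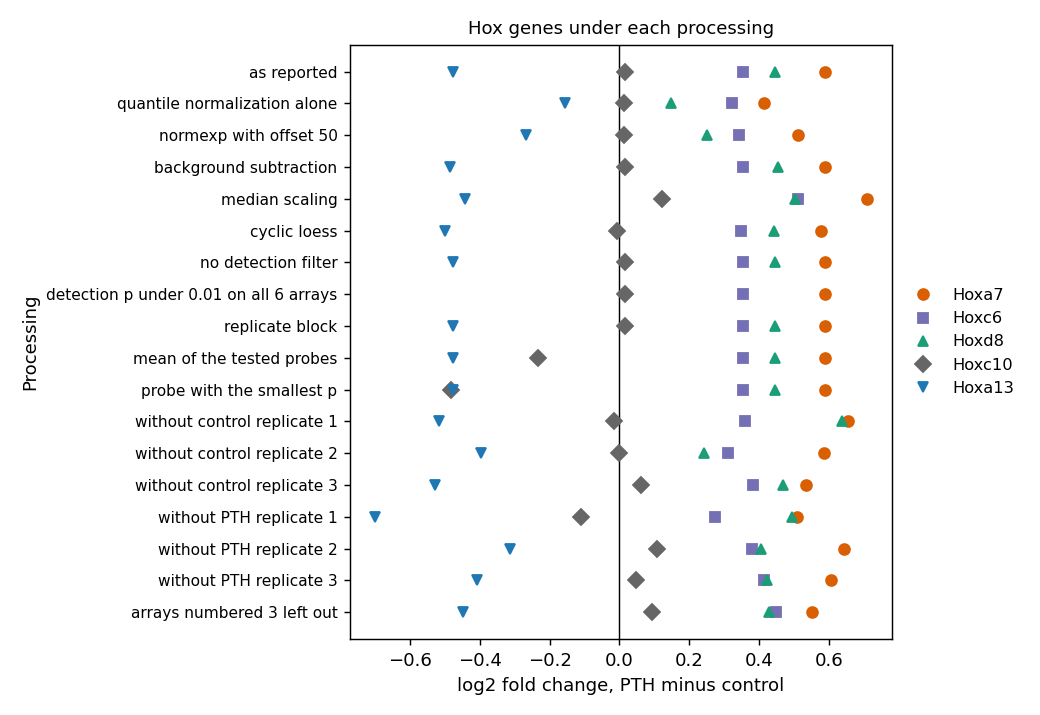
Log2 fold change of PTH over control (horizontal axis) for 5 Hox genes under the reported processing and each alternative (vertical axis); points are missing where the gene was not tested. *Hoxa7* stays between 0.42 and 0.71 and *Hoxc6* between 0.27 and 0.51, and *Hoxc10* takes both signs, at −0.48 where its dimmer probe stands for the gene.

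Genes known to act with or upstream of Hox factors were read in the same arrays. Of the PBC and MEIS families, the homeodomain partners that bind DNA together with Hox proteins, 7 genes were on the array, 4 were above background on all 3 control arrays, and 0 of 6 tested were called. The shares over the whole table were 32.8% above background and 1.73% called, so the lack of a call among 6 genes is no result about this list. *Meis1* was above background on all arrays, with log2 values of 6.73, 6.88 and 6.79 in control and 6.70, 6.81 and 7.06 with PTH (log2 fold change 0.05, SE 0.14, adjusted p = 0.903, limma). The largest differences in this list were 0.45 for *Pknox2* (adjusted p = 0.309) and −0.41 for *Pbx3* (adjusted p = 0.325, limma), both with groups that overlapped.

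Of 22 genes of the Polycomb and Trithorax complexes, which keep Hox genes silent or active through cell division, 15 were above background on all 3 control arrays and 0 of 16 tested were called. The median log2 fold change of the 16 was 0.04, from −0.23 to 0.43. The groups were apart with PTH higher for *Ezh2*, a histone methyltransferase of Polycomb, its partner *Eed*, and *Bmi1* of the other main Polycomb complex, and apart with PTH lower for *Men1*, which works with the Trithorax enzyme listed as *Mll*. These were 3 of 16 apart higher, where 11.1% of all genes tested were, and 1 of 16 apart lower, where 10.8% were. The largest of the 4, *Eed*, gave 7.83, 7.94 and 7.87 in control and 8.19, 8.25 and 8.48 with PTH, with a log2 fold change of 0.43 (SE 0.13, adjusted p = 0.177, limma).

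Of 24 transcription factors and signals of limb patterning outside the clusters, 12 were above background on all 3 control arrays, and 1 of 15 tested was called. Their median log2 fold change was −0.12, with 10 of the 15 lower with PTH. The shares over the whole table were 32.8% above background and 1.73% called. *Isl1*, a LIM homeobox gene that starts the hind limb bud, fell. Its signals were 145.8, 173.7 and 153.1 in control and 120.8, 115.0 and 139.5 in PTH bone tubes, above background on 3 control arrays and 1 PTH array. All PTH arrays were below all control arrays. Its means were 5.99 ± 0.12 and 4.98 ± 0.19 (SD, n = 3, normalized log2 signal). The fitted difference was −1.01 on the log2 scale (SE 0.14, adjusted p = 0.0181, limma). The gene entered the test mainly through its control arrays. With each PTH array set no lower than the lowest signal above background there, it was at least 1.85-fold lower on the normalized scale used here. This bound does not hold under other background corrections. When arrays were left out singly, the adjusted p was 0.04996 without PTH replicate 3 and between 0.0517 and 0.0773 without each of the other 5, and it was under 0.05 in 8 of 15 alternatives in all. With an offset of 50 the difference was −0.57, and with quantile normalization alone, which leaves the background in the signal, it was −0.34.

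*Tbx3*, a T-box gene of the limb margins, and *Gli3*, which restrains hedgehog signals in the limb, had groups apart with PTH higher and were not called. They were 2 of 15, where 11.1% of all genes were apart in this direction, and *Isl1* and *Msx1* (log2 fold change −0.16, adjusted p = 0.617, limma) were the 2 of 15 apart with PTH lower, against 10.8%. *Tbx3* gave log2 values of 7.88, 7.30 and 7.66 in control and 8.31, 8.11 and 8.32 with PTH (log2 fold change 0.63, SE 0.17, adjusted p = 0.138, limma), and *Gli3* gave 9.03, 9.25 and 9.04 against 9.56, 9.62 and 9.50 (0.45, SE 0.12, adjusted p = 0.147). For the genes that tell hind limb from fore limb, *Pitx1* was above background on no control array and 1 PTH array, and *Tbx4* on 1 control and 2 PTH arrays (log2 fold change −0.24, SE 0.28, adjusted p = 0.762, limma). *Tbx5*, the fore limb gene, was above background on no array. *Shh* and *Hand2*, which act in the posterior limb bud, and *Lmx1b* and *En1* of its dorsal and ventral sides, were above background on none of the 6 arrays either.

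Homeobox genes of the embryonic head were read as a comparison. None of 10 head genes, *Otx2*, *Emx2* and *Six3* among them, was above background on all 3 control arrays, where 32.8% of all gene symbols were. On no array at all were 5 of the 10 above background, and none could be tested. Genes outside the Hox family were read on both sides of each cluster. *Skap2*, *Snx10* and *Hibadh* beside the Hoxa cluster and *Atp5g2*, *Smug1* and *Cbx5* beside the Hoxc cluster were above background on all 6 arrays, as was *Snx11* beside the Hoxb cluster. *Evx2* and *Mtx2* beside the Hoxd cluster and *Ttll6*, *Calcoco2* and *Skap1* beside the Hoxb cluster were so on none. *Evx1* beside the Hoxa cluster was above background on 1 array of each group, *Calcoco1* beside the Hoxc cluster on 2 of each, and *Lnpk* beside the Hoxd cluster on 2 PTH arrays. With 1 or a few probes to a gene, these counts describe the probes of the array and were given no test.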

How the data were processed

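RNA of control and PTH bone tubes (3 arrays each) was read on Illumina mouse bead arrays. The authors deposited linear signal intensity per probe and array, neither normalized nor background subtracted, and a detection p-value against negative controls. The submitters' processing notes name GenomeStudio. Signals were corrected (normexp through the detection p-values, offset 16), quantile normalized and taken to log2 by the neqc function (limma 3.58.1, R 4.3.3). Probes with a detection p under 0.05 on at least 3 of 6 arrays (16214 of 45281) were tested by lmFit and eBayes, and p-values were adjusted over all of them (Benjamini-Hochberg). Each gene stood for its brightest tested probe. Signal over background was the deposited signal divided by the mean background estimated for that array. The number of arrays limits the precision. The procedure was tested on simulated data. The Hox genes and the other lists were chosen with earlier results of these data known. Hox genes tested are given by array, the rest by the number of arrays above background, and of the other lists the called genes, plus *Pitx1*, *Tbx4*, *Tbx5* and *Meis1*; others, such as *Tbx3*, *Gli3* and *Eed*, were named after their values were seen. Of the genes on the 12 lists, 125 of 128 matched a symbol of the table, directly or through older names in the RefSeq table of GRCm38.p6. Some genes counted in these totals are not reported here. Array coordinates were not used. Alternatives were quantile normalization alone, an offset of 50, background subtraction, median scaling, cyclic loess, other detection filters and probe rules, a block for the replicate number, the methods' t-test, and arrays left out singly. Leaving out both arrays numbered 3 was added after seeing the data. No slide is named, so a slide block could not be run.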

Additional observations from a re-analysis of the deposited data

How the results depend on the processing

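The count of Hox genes called was 0 under all but 3 alternatives, detection at p under 0.01 on all 6 arrays, an unadjusted p (limma) and the methods' t-test unadjusted, each of which called 1, *Hoxa7*. The count above background on all control arrays was 16 with at least 2 of 3 arrays required and 11 to 14 with 1 left out. The count of Hox genes with groups apart was 5 with no detection filter and 3 to 6 with 1 array left out. Smaller groups separate more often without any difference, and the shares of all genes apart were not counted at these settings. A higher count there is therefore no result about Hox genes. The median log2 fold change of the Hox genes was 0.004 to 0.17 with 1 array left out, the highest without PTH replicate 3, where 11 genes were tested. Over all genes, 104 were called with median scaling (63 higher and 41 lower, against 82 and 125 as reported; the median change of all genes was 0.12), 622 at an unadjusted p, 68 and 506 with the methods' t-test adjusted (Benjamini-Hochberg) and unadjusted, 50 to 95 with 1 array left out and 21 without both arrays numbered 3. Limb patterning genes called were 0 with quantile normalization alone, offset 50, median scaling, the stricter detection filter, the adjusted methods' t-test or the arrays numbered 3 left out, 2 at an unadjusted p by either test, and 0 to 1 with 1 array left out. Arrays of the same number did not deviate together for every number (r = 0.067, 0.064 and 0.273), so the numbers were not taken to pair the arrays; with the replicate number as a block, 44 of all genes, 0 Hox genes and 0 limb patterning genes were called, and *Hoxa7* had an adjusted p of 0.12, and only array 3 correlated best with its own number. The sign turned for *Hoxa4* with quantile normalization alone (0.004), offset 50 (0.003), median scaling (0.02) and arrays numbered 3 left out (0.075), and from −0.24 to 0.13 with 1 array left out. It turned for *Hoxc10* with cyclic loess (−0.006), the mean of its probes (−0.23) and its probe of smallest p (−0.48), and from −0.11 to 0.11 with 1 array left out. It turned for *Hoxc9* with median scaling (0.12; −0.15 to 0.072 with 1 array left out), for *Meis1* with arrays numbered 3 left out (−0.052; −0.048 to 0.13), and, with 1 array left out, for *Hoxa9* (−0.08 to 0.34), *Hoxb2* (−0.072 to 0.44) and *Hoxb7* (−0.069 to 0.16). The cause was not tested. Signals of many Hox probes lay near background, which limits both their detection and their fold changes.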
